A study of Mus musculus with 6 samples.

Results

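The insulin-like growth factor (IGF) system is described here through 10 genes, in mesenchymal stem cells from mouse bone marrow (mBMSCs): the ligand gene Igf1, the receptor gene Igf1r, the binding protein genes Igfbp2 to Igfbp7 and the receptor substrate genes Irs1 and Irs2. They were taken by symbol from the 22030 genes of the count table, which holds all 10. Of these, 8 were among the 13067 genes with enough counts to test, while Igf1 and Igfbp2 were not. The 3 control libraries are titled siNC and labelled wild type, and the 3 others are labelled as a knockdown of RIOK3, which belongs to the atypical RIO kinases. The titles carry the prefix si, the design text speaks of stable lines made by lentivirus and in one place of a knockout, so the agent is not settled by these sources. No source used here gives the vector, the number of clones, the strain, age or sex of the mice, the medium or the time of harvest. Nor do the labels call the replicates separate cultures, and p-values then measure the spread among these samples alone, which may be technical.

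IGF1 binds a receptor tyrosine kinase, IGF1R, which phosphorylates the IRS adaptors. These recruit PI3K, and AKT and mTOR then act on growth, survival and protein synthesis. Outside the cell, IGF binding proteins hold most of the ligand and regulate its access to the receptor, and proteases such as PAPP-A release it by cutting them. In bone, IGFs are stored in the matrix and act on osteoblasts and their stromal progenitors.

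Libraries held between 28327612 and 32569544 counts. Levels of one gene across libraries are given as CPM, counts scaled to a common library size, with a TMM factor per library that centres most genes, and levels between genes as the authors' FPKM, which divides counts by gene length. Riok3 (ENSMUSG00000024404.8, chromosome 18) was at 143, 193 and 135 CPM in control replicates 1, 2 and 3 and at 32.1, 31.5 and 37.2 CPM in the knockdown replicates, 4.68-fold lower (log2 fold change −2.23, SE 0.178, adjusted p = 0.000127; −1.20, adjusted p = 0.0105 with the GC offset described below). All folds are knockdown over control, and all adjusted p-values are from edgeR's quasi-likelihood test with Benjamini-Hochberg adjustment over all tested genes unless another tool is named. The word called stands for an adjusted p under 0.05. Of all tested genes, 48.0% were called, 21.1% higher and 26.8% lower in the knockdown, and the groups did not overlap in CPM for 62.1%. Fold changes also followed the GC content of transcripts (Spearman 0.70 across 13043 genes, which are not independent replicates). With each library's GC trend removed by an offset, 31.6% were called, 16.3% higher and 15.2% lower, and that correlation was −0.03. The main folds below are therefore given with and without this GC offset. What gave rise to the trend was not tested, and the offset removes it whatever its origin. GC content was read from 1 transcript per gene, and where its mean over a gene's coding transcripts changes a call, that value is given as well. Control replicate 2 stood apart, since its Spearman correlation was 0.963 with control replicate 1 and 0.968 with control replicate 3, which correlated at 0.996 with each other. Its deviation from them fell with transcript length (Spearman −0.57 over 13043 genes), and without it 9592 genes were called in place of 6266.

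Of the 13 markers of stromal cells, 12 could be tested, among them Vcam1 (56.9 ± 3.55 CPM in control) and Col1a2 (172 ± 50.5 CPM). Their sum was between 2927 and 4031 CPM in control and between 2286 and 2559 CPM in the knockdown libraries, with 4 members higher and 6 lower (2 higher without any 1 of control replicates 1 and 3 and knockdown replicates 2 and 3). Counts with the GC offset were 3 higher and 3 lower. Of all tested genes 21.1% were higher and 26.8% lower, and 16.3% and 15.2% with the offset. Lepr, a marker of marrow stromal cells in vivo, had at most 13 counts in a library. Macrophage and blood cell markers summed to between 26.6 and 43.3 CPM in control and between 46.6 and 51.7 CPM in the knockdown, nearly all from Cd68, while Adgre1 and Fcer1g have no entry in the count table. Endothelial markers summed to at most 8.02 and 8.79 CPM, with no entry for Emcn and Tie1. Adipocyte markers went from between 94.3 and 107 CPM to between 35.5 and 37.0 CPM, through Lpl and Fabp4, with no entry for Adipoq, Cidec and Lep. Both were called lower (−1.42, adjusted p = 0.000152, and −2.11, adjusted p = 0.0023), but neither with the GC offset (−0.28, adjusted p = 0.129, and −0.25, adjusted p = 0.685). Mature osteoblast markers went from between 530 and 659 to between 148 and 159 CPM, almost all of it Spp1, and Sp7, Bglap, Ibsp and Dmp1 had at most 6 counts. Spp1, which encodes the matrix protein osteopontin, fell (−1.95, and −0.999 with the GC offset, adjusted p = 0.0105). Alpl, the gene of the alkaline phosphatase of mineralising cells and the other testable marker, rose from 1.92 ± 0.563 to 4.75 ± 0.611 CPM (1.31, adjusted p = 0.00581, and 0.79 with the offset, adjusted p = 0.0455). What part these shifts have in the results on IGF genes was not tested, and fewer cells of a type cannot be told apart from less RNA per cell in bulk libraries.

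Among the IGF genes, Igfbp3 fell and Igfbp4 rose, and both calls held in all 23 alternative settings. Igfbp5 rose from very low counts and was called in the 20 settings that tested it. With the main filter on low counts it could be tested only because it was higher. Its calls are therefore not of the same weight as those of Igfbp3 and Igfbp4. The promoters of these 3 are shown because their transcripts moved furthest and in opposite directions within a family. Each is the 250 bases before the RefSeq start site on build GRCm38.p6, an earlier build than the GRCm39 named by the submitters, written 5′ to 3′ on the gene's strand, with capitals for the TATA box letters TATAAA or the GC box letters GGGCGG on either strand. Igfbp3 is at chr11:7213924-7214173 on the minus strand, Igfbp4 at chr11:99040994-99041243 on the plus strand and Igfbp5 at chr1:72874866-72875115 on the minus strand.
Igfbp3: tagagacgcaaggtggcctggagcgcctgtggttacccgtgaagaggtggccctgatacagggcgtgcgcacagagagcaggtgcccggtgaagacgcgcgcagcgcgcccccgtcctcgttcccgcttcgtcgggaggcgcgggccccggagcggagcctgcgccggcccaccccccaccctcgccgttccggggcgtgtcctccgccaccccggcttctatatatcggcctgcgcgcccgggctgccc
Igfbp4: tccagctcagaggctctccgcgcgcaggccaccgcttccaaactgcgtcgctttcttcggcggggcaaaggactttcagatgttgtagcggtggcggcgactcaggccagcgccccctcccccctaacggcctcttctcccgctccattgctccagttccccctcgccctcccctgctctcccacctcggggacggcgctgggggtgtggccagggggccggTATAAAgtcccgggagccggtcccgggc
Igfbp5: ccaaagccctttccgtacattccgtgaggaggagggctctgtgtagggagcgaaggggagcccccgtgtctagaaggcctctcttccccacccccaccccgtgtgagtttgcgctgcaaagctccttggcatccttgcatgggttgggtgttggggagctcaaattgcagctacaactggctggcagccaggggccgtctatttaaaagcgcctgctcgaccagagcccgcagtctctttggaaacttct
The Igfbp4 window has TATAAA beginning 28 bases before the start, a motif present on either strand in 12.4% of the 32851 promoter windows of that length in the table. The Igfbp3 and Igfbp5 windows hold neither of these exact strings, and GGGCGG occurs in 32.7% of all windows. Other forms of a TATA box were not searched, such as the letters tatatat in the Igfbp3 window and tatttaaa in that of Igfbp5. These windows are therefore not shown to lack a TATA box. Their GC contents are 73.2% for Igfbp3, 69.2% for Igfbp4 and 58.8% for Igfbp5, where the median of all windows is 52.4% (quartiles 45.2 and 61.2%).

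All 10 genes matched the promoter table. GGGCGG occurs 2 times before Igf1r, 2 times before Irs1, once before Irs2 and 4 times before Igfbp7, whose windows are 77.6, 72.4, 72.8 and 74.0% GC. The window of Igfbp6 is 49.6% GC and has TATAAA on the opposite strand, 148 bases before the start, and that of Igf1 is 52.8% GC with neither motif. Igfbp2 has 2 start sites in the table, the first with 3 GC boxes. The forkhead letters GTAAACA, the site of FOXO factors that act downstream of AKT, were in no window of the 10 genes and in 3.17% of all windows on either strand. The AP-1 letters TGACTCA were found once, before the second start of Igfbp2, and in 4.46% of all windows. The matches found do not overlap one another. Igfbp2 and Igfbp5 are neighbours on chromosome 1 that point towards each other with no coding gene between them in the RefSeq table, and Igfbp3 lies beside Igfbp1 on chromosome 11.

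Reads of the ligand gene were few. Igf1 (ENSMUSG00000020053.19, chromosome 10) was read 8, 7 and 5 times in control replicates 1, 2 and 3 and 9, 10 and 17 times in the knockdown replicates. The groups did not overlap, with 20 counts in all in control (exact 95% Poisson interval 12.2 to 30.9) against 36 (25.2 to 49.8). Its rate ratio was 1.63 (exact 95% interval 0.918 to 2.97), and these intervals cover counting error only. With no filter on low counts its log2 fold change was 0.72 (SE 0.553, adjusted p = 0.377), so no change in Igf1 was called. At this depth a change within the interval above could not be told from none. Igf2, the fetal ligand, was at 1.75, 0.827 and 1.28 CPM in control and at 0.870, 0.691 and 0.419 CPM in the knockdown, with overlapping groups (log2 fold change −0.96, adjusted p = 0.0822). With the GC offset Igf2 was called lower (−1.45, adjusted p = 0.0312). Ins1 and Ins2, the insulin genes, and the liver products Igfbp1 and Igfals have no entry in the count table used here.

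Igf1r (ENSMUSG00000005533.11, chromosome 7) was at 46.7, 30.1 and 46.2 CPM in control replicates 1, 2 and 3 and at 33.2, 31.2 and 31.7 CPM in the knockdown replicates. Control replicate 2 was below every knockdown library while the other controls were above them, so the groups overlapped. Mean levels were 41.0 ± 9.44 and 32 ± 1.06 CPM (SD, n = 3), and the log2 fold change of −0.36 (SE 0.189, 95% interval −0.73 to 0.02, adjusted p = 0.160) did not pass. It did not pass with the GC offset either (−0.26, adjusted p = 0.222). Without control replicate 2, Igf1r was called lower at −0.53 (adjusted p = 5.94e-06), and at −0.40 (adjusted p = 4.57e-05) with the GC offset as well. With all libraries kept, it was called lower by limma-voom with quality weights (−0.52, adjusted p = 3.04e-05). It was also called lower with GC, adenine and length removed (−0.34, adjusted p = 0.0456), which makes 4 of 23 alternatives. Its transcript, of 11409 nt, is the longest of the 10, and control replicate 2 deviated from the mean of the other controls by −0.63 for it on the log2 scale.

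Insr, the insulin receptor gene and the receptor closest to IGF1R, was at 41.0, 33.3 and 38.2 CPM in control and at 21.0, 19.0 and 19.3 CPM in the knockdown. It fell by a log2 fold change of −0.92 (SE 0.136, adjusted p = 0.00153), and passed with the GC offset (−0.45, adjusted p = 0.0231). It was called in 21 of 23 alternatives, the exceptions being GC and length removed together (−0.23, adjusted p = 0.392) and the replicate block with the GC offset (adjusted p = 0.078). On the FPKM scale the ratio of Igf1r to Insr was 0.931, 0.738 and 0.992 in control replicates 1, 2 and 3 and 1.30, 1.34 and 1.35 in the knockdown replicates. On that scale, with no GC offset, Insr was above Igf1r in the 3 controls and below it in the 3 knockdown libraries. The control means have a ratio of 0.896, which the fitted fold changes carry to 1.33 with TMM scaling only and to 1.02 with the GC offset, a calculation chosen after seeing the data. The difference between the fold changes of these genes was not tested. Igf2r, which clears IGF2 and sorts lysosomal enzymes, was at 255, 129 and 254 CPM in control and between 281 and 292 CPM in the knockdown, a difference that did not pass (0.43, adjusted p = 0.202).

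Igfbp3 (ENSMUSG00000020427.12, chromosome 11) encodes the main carrier of IGFs in serum, which also has actions without IGF. It was at 29.1, 34.5 and 23.5 CPM in control replicates 1, 2 and 3 and at 3.89, 4.84 and 3.83 CPM in the knockdown replicates. Every knockdown library lay far below the lowest control. The mean went from 29.0 ± 5.50 to 4.18 ± 0.566 CPM (SD, n = 3), 6.94-fold lower, with a log2 fold change of −2.79 (SE 0.198, adjusted p = 8.21e-05). With the GC offset it was −3.05 (adjusted p = 0.000266), and it ranged from −3.11 to −1.91 over the 23 alternatives. Genes of like GC content (52.3 to 54.2%) had a median of 0.34, and the Igfbp3 transcript has 52.5%.

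Igfbp4 (ENSMUSG00000017493.13, chromosome 11) encodes a binding protein mostly known to inhibit IGF action until PAPP-A cleaves it. It was at 132, 188 and 149 CPM in control replicates 1, 2 and 3 and at 435, 435 and 399 CPM in the knockdown replicates, with no overlap. The mean rose from 156 ± 28.6 to 423 ± 20.8 CPM, 2.70-fold, with a log2 fold change of 1.44 (SE 0.160, adjusted p = 0.00051). With the GC offset it was 1.0 (adjusted p = 0.00406), and the alternatives ran from 0.70, with GC, adenine and length removed, to 1.72. Its transcript has 55.1% GC, and the median fold change of genes with 54.2 to 56.0% was 0.43.

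Igfbp5 (ENSMUSG00000026185.9, chromosome 1) encodes a binding protein that is retained in bone matrix. Counts were 6, 1 and 6 in control and 51, 60 and 32 in the knockdown replicates. All 3 knockdown libraries were above every control, but the level remained low, at 0.147 ± 0.0957 and 1.47 ± 0.398 CPM. Summed counts were 13 (exact 95% Poisson interval 6.92 to 22.2) and 143 (121 to 168), a rate ratio of 9.95 (exact 95% interval 5.64 to 19.1, counting error only). The log2 fold change was 3.28 (SE 0.505, adjusted p = 0.00197), and 3.26 with the GC offset (adjusted p = 0.00361). On log2(FPKM + 1), without a filter, a scale that understates low genes, it was 0.30. Igfbp5 passed the filter on low counts only through the knockdown libraries, so its place among the tested genes already required a difference. Its neighbour Igfbp2 (ENSMUSG00000039323.19), a binding protein abundant in many fetal tissues, had 2 counts in all 6 libraries, 1 in each group.

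Igfbp6 (ENSMUSG00000023046.7, chromosome 15), whose product prefers IGF2, was at 177, 235 and 198 CPM in control replicates 1, 2 and 3 and at 310.2, 309.9 and 247.7 CPM in the knockdown replicates. The groups did not overlap, and the mean went from 203 ± 29.4 to 289 ± 36.0 CPM, 1.42-fold higher. The log2 fold change of 0.51 (SE 0.159, adjusted p = 0.0343) was called, but with the GC offset it was −0.17 (adjusted p = 0.349) and not called. The call also ended when any 1 library other than control replicate 2 or knockdown replicate 3 was left out. Without control replicate 1, control replicate 3, knockdown replicate 1 and knockdown replicate 2 the adjusted p was 0.0981, 0.0942, 0.125 and 0.126. Its transcript is the richest in GC of the 8 tested genes, at 60.7%, where genes with 58.3 to 75.9% GC had a median fold change of 0.64.

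Igfbp7 (ENSMUSG00000036256.14, chromosome 5), a related protein with weak affinity for IGFs, was at 23.3, 38.5 and 26.5 CPM in control and at 36.0, 35.7 and 30.2 CPM in the knockdown. Control replicate 2 was above all knockdown libraries, so the groups overlapped, and the log2 fold change of 0.21 (SE 0.208, 95% interval −0.20 to 0.61, adjusted p = 0.440) did not pass. Igfbp7 was called higher without control replicate 2 (0.45, adjusted p = 0.000532) and by limma-voom with quality weights (0.425, adjusted p = 0.00131). Without control replicate 2 and with the GC offset it was called lower (−0.19, adjusted p = 0.0337). With the GC offset alone it was at −0.41 (adjusted p = 0.132), so its direction turned with the offset.

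**Figure D1:**
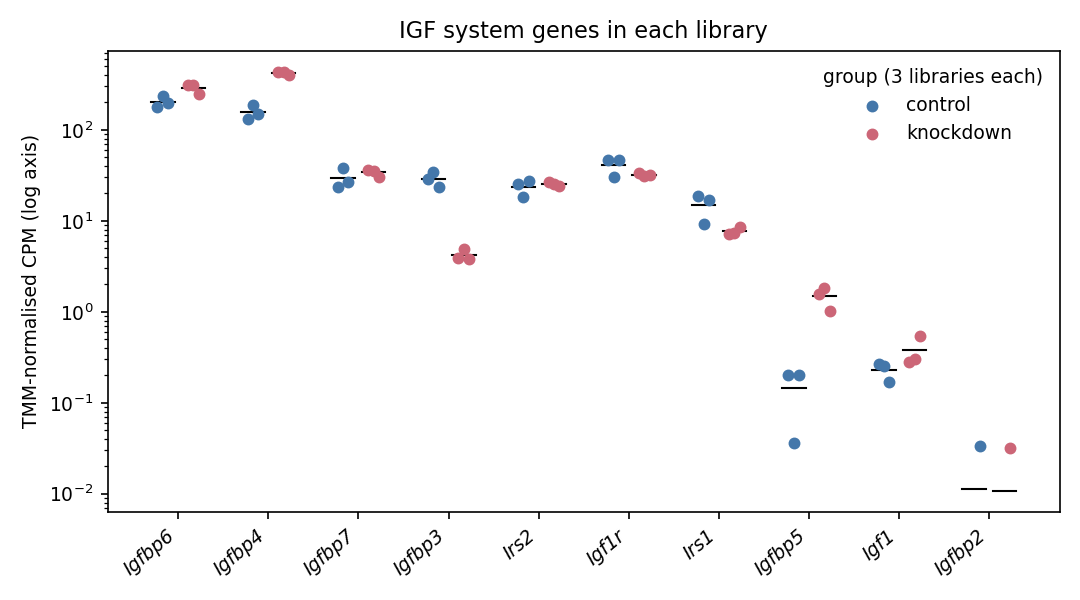
Normalised level of the 10 IGF genes in each library, as CPM with TMM scaling on a log axis, genes in order of control FPKM. Points are single libraries (3 control, 3 knockdown) and bars are group means; libraries with no Igfbp2 count are not drawn. The knockdown libraries lie below every control for Igfbp3 and Irs1 and above every control for Igfbp4, Igfbp5, Igfbp6 and Igf1.

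Of the adaptor genes, Irs1 was called lower and Irs2 was not with TMM scaling only. The difference between their fold changes was not tested. Irs1 (ENSMUSG00000055980.3, chromosome 1), a main substrate of both the insulin and the IGF1 receptor, was at 18.5, 9.24 and 16.8 CPM in control replicates 1, 2 and 3 and at 7.12, 7.39 and 8.47 CPM in the knockdown replicates. Control replicate 2 came near the knockdown level without reaching it. The mean fell from 14.8 ± 4.94 to 7.66 ± 0.714 CPM, 1.94-fold, with a log2 fold change of −0.96 (SE 0.264, adjusted p = 0.0215) and nearly the same with the GC offset (−0.97, adjusted p = 0.0190). The sign held in all 21 alternatives that tested it, and the call in 14. The call ended when any library but control replicate 2 was left out, where adjusted p ran from 0.0547 to 0.0814, on log2(FPKM + 1) without a filter (−0.35, adjusted p = 0.172), and with library totals alone (−0.71, adjusted p = 0.0608), a scaling under which the median of all tested genes was 0.26.

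Irs2 (ENSMUSG00000038894.8, chromosome 8), the substrate that FOXO factors are known to induce, was at 25.1, 18.3 and 27.3 CPM in control replicates 1, 2 and 3 and at 26.4, 25.5 and 24.3 CPM in the knockdown replicates. The groups overlapped, with a log2 fold change of 0.11 (SE 0.173, 95% interval −0.23 to 0.45, adjusted p = 0.632). With the GC offset Irs2 was at −0.42 (adjusted p = 0.101). With 3 other offsets for sequence composition it was called lower. These gave −0.55 with GC and length, −0.56 with GC, length and adenine, and −0.58 with GC but without control replicate 2. Irs1 was called lower in those 3 settings as well. On the FPKM scale, with no GC offset, the ratio of Irs2 to Irs1 was 1.97, 2.84 and 2.35 in control replicates 1, 2 and 3. In the knockdown replicates this ratio was 5.39, 5.01 and 4.17, with no overlap. With the GC offset the log2 fold changes were −0.97 for Irs1 and −0.42 for Irs2.

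In all, 5 of the 8 tested IGF genes were called, 3 higher and 2 lower, and the groups did not overlap for 5 of 8. These counts stand beside shares of 48.0% and 62.1% of all tested genes, and 4 of 8 were called with the GC offset, beside 31.6%. When any 1 library but control replicate 2 was left out, 1 was called lower, Igfbp3. Their median log2 fold change was 0.16, with 0.01 over all tested genes, and −0.34 with the GC offset, with 0.03 over all. No count over the 8 supports a statement on the IGF genes as a group, since Igfbp5 could be tested only because it was higher.

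**Figure D2:**
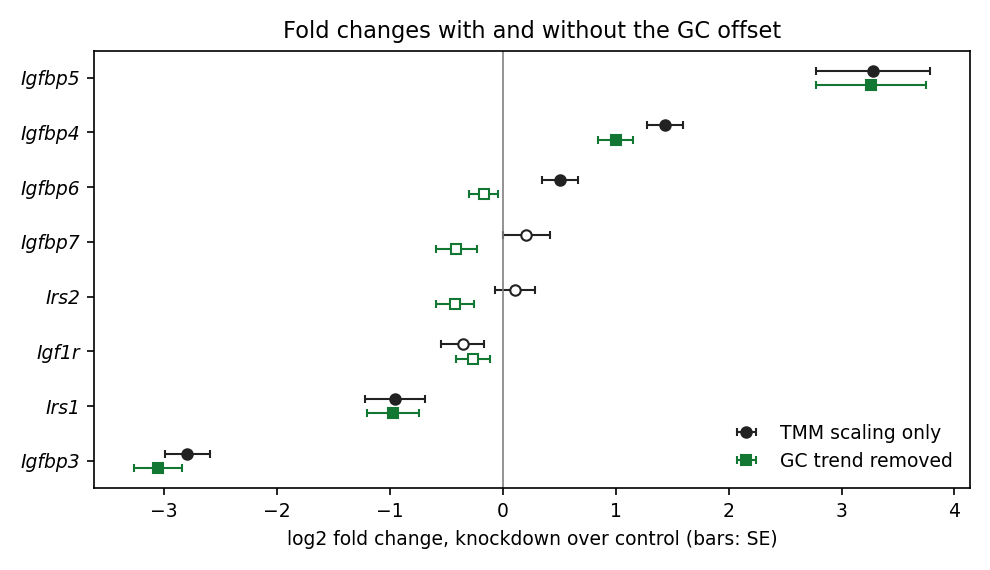
Log2 fold change (knockdown over control) of the 8 tested IGF genes with TMM scaling only (circles) and with the GC trend of each library removed (squares), bars showing SE. Filled symbols have an adjusted p under 0.05. Igfbp5, Igfbp4, Irs1 and Igfbp3 are filled in both, and Igfbp6 moves from 0.51 to −0.17.

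**Figure D3:**
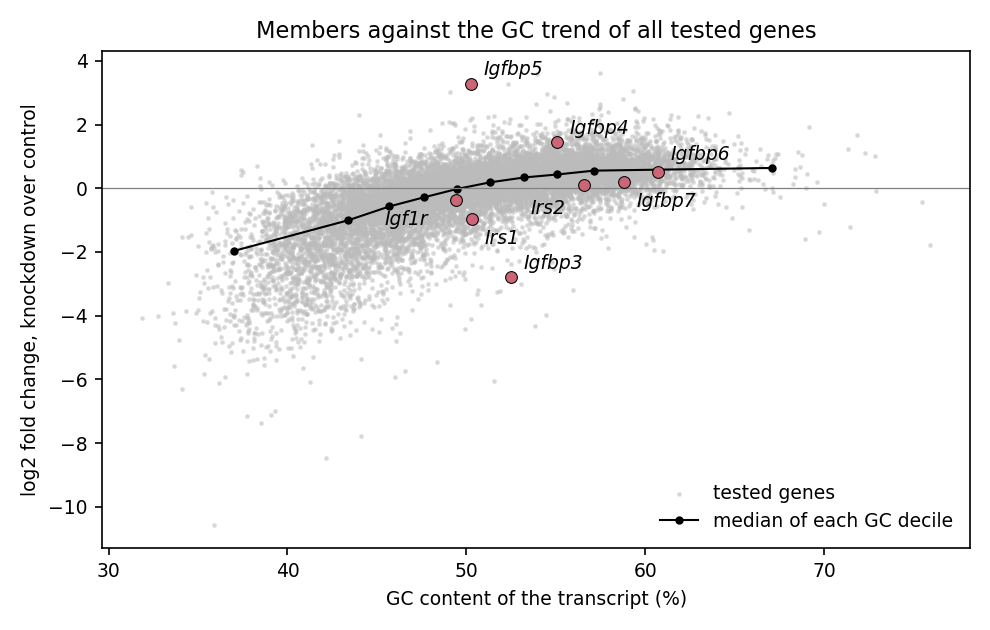
Log2 fold change against GC content of the transcript for all tested genes (grey), with the median of each decile of genes by GC content (black) and the 8 tested IGF genes (red). Igfbp6 lies close to the black line, Igfbp4 and Igfbp5 lie above it, and Igfbp3, Irs1, Igf1r, Irs2 and Igfbp7 lie below it.

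Per length, Igfbp6 was the most abundant of the 10 transcripts in both groups, at 161 ± 21.9 FPKM in control and 278 ± 33.2 FPKM in the knockdown. Igfbp4 (31.2 ± 5.38 FPKM) and Igfbp7 (21.4 ± 5.52 FPKM) came next in control. Their ranges overlapped across the control replicates, but within each control library Igfbp4 was above Igfbp7. In the knockdown they were at 102 ± 4.5 and 30.0 ± 2.73 FPKM, without overlap. Igfbp3 came after them in control at 8.16 ± 1.38 FPKM, ahead of Irs2 and Igf1r, and in the knockdown was at 1.43 ± 0.191 FPKM, below Irs2 (4.29 ± 0.146 FPKM) and Igf1r (2.04 ± 0.0557 FPKM) without overlap. In control Irs2 (3.29 ± 0.718 FPKM), Igf1r (2.16 ± 0.526 FPKM) and Irs1 (1.44 ± 0.485 FPKM) followed. The lowest Irs2 library, at 2.50 FPKM, was just above the highest Igf1r library, at 2.49 FPKM. The ranges of Igf1r and Irs1 overlapped, but within each control library Igf1r was above Irs1. Igfbp5, Igf1 and Igfbp2 closed the order in control. The length behind these FPKM values follows all annotated exons, which span 16791 nt for Igf1r, whose coding transcript has 11409 nt. For Irs2 both are 6323 nt, so the order of Irs2 and Igf1r may depend on the length used.

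The summed FPKM of Igfbp2 to Igfbp7 was 190.55, 257.13 and 218.12 in control replicates 1, 2 and 3 and 433.14, 436.60 and 364.69 in the knockdown replicates. FPKM is scaled to library totals, under which the median fold change of all tested genes was 0.26 on the log2 scale, and shares within a library do not depend on that scaling. Igfbp3 was 4.27, 3.71 and 3.11% of that sum in control and 0.305, 0.378 and 0.362% in the knockdown. Igfbp4 went from 13.7, 14.3 and 14% to 24.1, 24.1 and 26.6%, again without overlap. Igfbp6 held 73.1, 71.2 and 73.8% in control and 68.2, 68.2 and 65.6% in the knockdown, a lower share beside a higher FPKM. Igfbp7 held 9.55 ± 1.02% and 7.29 ± 0.0667%. The ratio of Igfbp4 to Igfbp3 in FPKM was 3.21, 3.86 and 4.49 in control and 79.1, 63.8 and 73.5 in the knockdown.

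The same sum was also built from the control means and each gene's fitted fold change, a calculation chosen after seeing the data in which the untested Igfbp2 keeps its control level. From 222 FPKM in control it came to 340 with TMM scaling only and to 223 with the GC offset, so the higher sum was not seen with the offset. The shares of Igfbp3, Igfbp4 and Igfbp6 with the offset were 0.441, 27.99 and 64.2%, and the ratio of Igfbp4 to Igfbp3 was 63.5. These shares moved the same way as the deposited FPKM, while the level of Igfbp6 itself was at −0.17 with the offset.

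**Figure D4:**
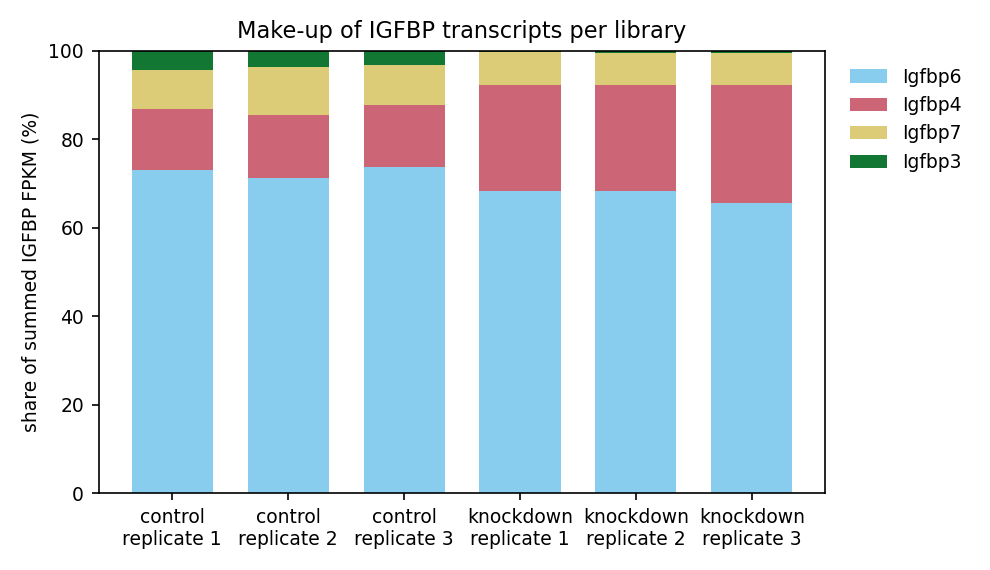
Share of each gene in the summed FPKM of Igfbp2 to Igfbp7, for each of the 6 libraries, in percent. Igfbp5 and Igfbp2, both under 0.1%, are too small to see. The Igfbp3 band is 3.11 to 4.27% in control and at most 0.378% in the knockdown, and the Igfbp4 band is wider in all 3 knockdown libraries.

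Genes whose profile over the 6 libraries was closest to that of Igfbp6 were Zfp444, Lysmd2 and Ubb, at Euclidean distances of 0.110, 0.111 and 0.114 between centred log2 CPM values, among 9222 genes of at least 5 CPM. Their log2 fold changes were 0.53, 0.49 and 0.46, alike through the choice of nearest profiles. The level of the ubiquitin gene Ubb is uncertain because it shares near-identical sequence with another gene. For Igfbp5 the nearest were Hap1, Apba1 and Ppp1r26, at distances of 1.16, 1.5 and 1.53 and fold changes of 2.04, 1.75 and 1.73. Igfbp5 was itself below 5 CPM, so genes of its own level were not searched. Its distances cannot be compared with those of Igfbp6.

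Proteases that cut binding proteins, and their inhibitors, were all measurable. Of 13 such genes, 5 were higher and 4 lower in the knockdown, beside 21.1% and 26.8% of all tested genes. With the GC offset 2 were higher and 5 lower, beside 16.3% and 15.2%. Counts of the lists in the paragraphs below stand beside these same shares, and no list was tested as a set. The protease and inhibitor genes called higher were 1 to 3 when any 1 library but control replicate 2 was left out. Without knockdown replicate 1 there was 1. Pappa, the metalloprotease PAPP-A that cleaves IGFBP4, was at 11.2, 7.69 and 12.8 CPM in control replicates 1, 2 and 3 and at 2.89, 3.94 and 3.28 CPM in the knockdown replicates. It fell with a log2 fold change of −1.65 (SE 0.235, adjusted p = 0.00143), and of −1.03 with the GC offset (adjusted p = 0.00804). Pappa2, its paralog that cleaves IGFBP3 and IGFBP5 and a gene chosen after its values were seen, was at 6.85, 2.88 and 6.67 CPM in control and at 1.55, 1.5 and 1.74 CPM in the knockdown (−1.77, SE 0.347, adjusted p = 0.00545; −1.48, adjusted p = 0.0106 with the GC offset). Adam12 and Adamts1, metalloprotease genes, fell as well, at −1.84 and −1.63, and at −1.80 and −1.58 with the GC offset, both past the threshold. Mmp14, a membrane-bound collagenase, rose at 0.80 (adjusted p = 0.0022) and was not called with the GC offset (0.35, adjusted p = 0.0626).

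The stanniocalcins are secreted inhibitors of PAPP-A. Stc1 was at 2.85, 2.01 and 2.90 CPM in control replicates 1, 2 and 3 and at 5.87, 4.54 and 4.12 CPM in the knockdown replicates, with no overlap, and rose by a log2 fold change of 0.90 (SE 0.228, adjusted p = 0.0153). With the GC offset it reached 2.30 (adjusted p = 0.000574), and without knockdown replicate 1 it was at 0.75, where it did not pass (adjusted p = 0.0616). Stc2 went from 62.5 ± 2.30 to 81.5 ± 3.79 CPM (0.38, SE 0.114, adjusted p = 0.0281), was at 0.23 with the GC offset (adjusted p = 0.144) and kept its call in 11 of 23 alternatives. Pappa was called lower, and Igfbp4 and Stc1 higher, with and without the GC offset. Stc2 was called higher without the offset and not with it. Whether cleavage of IGFBP4 differed was not tested.

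Other ligands, receptors and binding partners numbered 9 tested genes, of which 3 were higher and 2 lower, and 1 and 3 with the GC offset. Without control replicate 2 they were 5 and 3. Itgb3 and Itgav encode the subunits of the αvβ3 integrin, which cooperates with IGF1R. Itgb3 rose from 5.97 ± 1.04 to 25.3 ± 0.572 CPM (log2 fold change 2.08, adjusted p = 0.000121) and Itgav fell from 40.1 ± 8.62 to 10.9 ± 0.558 CPM (−1.88, adjusted p = 0.000302). Both kept their direction and call with the GC offset, at 1.87 and −0.73. Ddr1, a collagen receptor that associates with the insulin and IGF1 receptors, rose at 1.53 (adjusted p = 0.00472) but was not called with the GC offset (0.87, adjusted p = 0.0570). Of the 3 genes for IGF2 mRNA-binding proteins, Igf2bp3 fell at −0.67 (adjusted p = 0.0229) and was at 0.01 with the GC offset. Igf2bp2 did not pass without the offset (−0.58, adjusted p = 0.0892) but was called lower with it (−0.70, adjusted p = 0.0484), and not with GC averaged over coding transcripts (−0.51, adjusted p = 0.0971). Igf2bp1 passed in neither (0.15, and 0.06 with the offset). The Igf2bp3 call held when control replicate 2 was left out but not without any other single library.

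Around the IRS adaptors, 21 other adaptor and brake genes were tested, with 5 higher and 5 lower, and 1 and 3 with the GC offset. Without control replicate 2 these counts were 7 and 8, and without any other single library 3 or 4 and 2 or 3. The adaptor gene Sh2b1 rose from 87.7 ± 5.06 to 155 ± 11.5 CPM and its paralog Sh2b2 from 4.83 ± 0.729 to 10.8 ± 1.16 CPM. Neither was called with the GC offset, at 0.22 and 0.44. Grb14, an inhibitory adaptor of the insulin receptor, fell from 47.4 ± 17 to 20.1 ± 1.61 CPM (−1.24, adjusted p = 0.00623; called in 22 of 23 alternatives) and was at −1.27 with the offset (adjusted p = 0.0174). The exception was GC averaged over coding transcripts (−0.60, adjusted p = 0.185). Mdm2, a ubiquitin ligase that acts on p53 and on IGF1R, fell at −1.10 (adjusted p = 0.00162) and at −0.52 with the offset (adjusted p = 0.0141), with a call in 21 of 23 alternatives but not with GC averaged over coding transcripts (−0.26, adjusted p = 0.121).

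Of the PI3K genes, the catalytic subunit gene Pik3ca fell from 89.3 ± 7.69 to 23.4 ± 1.57 CPM (−1.93, adjusted p = 6.53e-05). Its transcript has a low GC content, 41.2%, and it was not called with the GC offset, at −0.22 (adjusted p = 0.227). Pik3ip1, an inhibitor of PI3K, rose from 10.7 ± 1.42 to 28.1 ± 0.495 CPM (1.39, adjusted p = 0.000355) and was called with the offset too (1.13, adjusted p = 0.0012). The regulatory subunit gene Pik3r2 was called higher at 0.99 (adjusted p = 0.000443) without the offset but not with it (0.29).

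The mTOR branch had 6 of 21 genes higher and 6 lower, and 4 and 3 with the GC offset. Without control replicate 2, 12 were higher, and 3 or 4 without any other single library. Rictor, the defining subunit of mTOR complex 2, fell from 37.4 ± 7.68 to 7.76 ± 0.967 CPM (log2 fold change −2.27, adjusted p = 0.000199), and to a lesser extent with the offset (−0.86, adjusted p = 0.00396). Deptor, an mTOR inhibitor, fell from 2.19 ± 0.496 to 0.403 ± 0.193 CPM (−2.43, and −1.47 with the offset, both called). Sesn2, a stress-induced inhibitor of mTOR complex 1, rose from 13.7 ± 2.13 to 38.7 ± 2.11 CPM (1.5, and 0.88 with the offset, both called). Rps6kb1, the S6 kinase that feeds back on IRS1, was called lower at −2.05, but was at 0.16 and not called with the offset (adjusted p = 0.429). Its annotated coding transcripts span 39.2 to 51.9% GC, and with GC averaged over them it was still called lower, at −0.80 (adjusted p = 0.00668).

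Of 20 genes known as FOXO targets, which include Irs2, Insr and Pik3ip1, 5 were higher and 4 lower, and 8 and 4 with the GC offset. Without control replicate 2, 8 were lower. Gadd45a, a stress gene, fell from 576 ± 124 to 261 ± 4.65 CPM (log2 fold change −1.14, and −1.13 with the offset, both called). Trim63, a ubiquitin ligase of muscle wasting, rose from 2.69 ± 0.404 to 5.80 ± 0.111 CPM (1.10, and 0.87 with the offset, both called). The members therefore went both ways with either scaling.

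In the growth hormone axis, which drives Igf1 in liver and bone, 3 of 7 tested genes were higher and 3 lower, and 1 and 1 with the GC offset. Only 1 was higher without control replicate 1 or without any 1 of the knockdown replicates. The receptor gene Ghr was called lower, from 41.4 ± 7.42 to 12.5 ± 0.902 CPM (−1.73, adjusted p = 0.00032), but was at 0.09 with the offset (adjusted p = 0.584). With GC averaged over its coding transcripts, which span 40.9 to 50.1%, it was still called lower (−0.64, adjusted p = 0.00884), and with GC, adenine and length removed it was called higher (0.36, adjusted p = 0.0412). Jak2, its kinase, fell from 64.4 ± 3.58 to 19.5 ± 2.18 CPM (−1.72, and −0.77 with the offset, both called, as in 22 of 23 alternatives). Stat5a rose from 1.22 ± 0.397 to 4.36 ± 0.213 CPM (1.83, and 1.35 with the offset, both called), and Stat5b rose at 0.67 (adjusted p = 0.0235) without being called with the offset (0.40, adjusted p = 0.111).

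**Figure D5:**
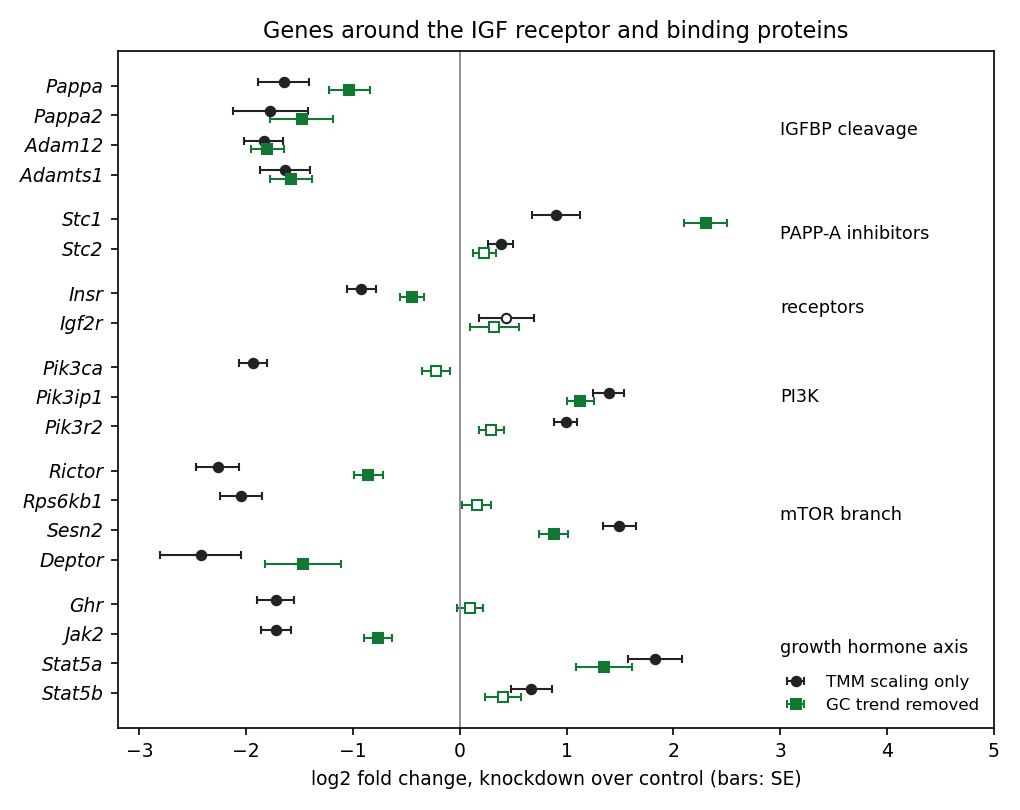
Log2 fold change (knockdown over control) of genes around the IGF receptor and binding proteins, grouped by role, with TMM scaling only (circles) and with the GC trend removed (squares); bars are SE and filled symbols have an adjusted p under 0.05. Pappa, Pappa2, Adam12 and Adamts1 lie below 0 and are filled in both. With the GC trend removed, Pik3ca, Rps6kb1 and Ghr, called lower, and Stc2, Pik3r2 and Stat5b, called higher, lose their fill. Rps6kb1 and Ghr stay called lower where GC is averaged over coding transcripts. Only some genes of each list are drawn. Of 13 proteases and inhibitors, 5 were called higher and 4 lower with TMM scaling only. The protease gene Mmp14, called higher, is not drawn, and Pappa2 was chosen after its values were seen.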

How the data were processed

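Stranded mRNA libraries were sequenced as paired ends on an Illumina instrument, per the labels' protocols. The submitters' processing notes name HISAT2, MultiQC and GRCm39 only. The sources used here do not give how reads were counted, with which strand and annotation. Raw counts per gene and FPKM were deposited by the authors. The deposited FPKM values were proportional to counts over a gene length within 1.03 times the union of exons in GENCODE M21.

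Counts were filtered with filterByExpr, scaled by TMM and tested without covariates with edgeR 4.0.16 (glmQLFit robust, glmQLFTest, two-sided) in R 4.3.3, each SE being the log2 fold change divided by the square root of F. Intervals for fold changes are 95% intervals from these SEs. Values are mean ± SD over 3 libraries. Settings compared were DESeq2 1.42.0, limma 3.58.1 (voom with quality weights, and limma-trend on log2(FPKM + 1) and log2(FPKM + 0.1)), other scalings and filters, the replicate number as a block, each library left out, and offsets for transcript composition (loess span 0.3). GC content came from the coding transcript with the longest coding part in GENCODE M21 (GRCm38), for 99.8% of tested genes. It need not be the transcript expressed here. The fit was tested on simulated counts with known changes. It recovered 69 of 100 changes of 1 log2 unit and 100 of 100 changes of 2 log2 units, with 10 false calls among 13105 genes. The simulated counts had the same dispersion for every gene, no GC trend and no library that stood apart. They do not show how the fit acts where these are present.

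Named genes were the 10 IGF genes, Riok3, 10 fixed ligands, receptors and regulators, up to 4 genes of smallest p per list, and the 3 nearest profiles of Igfbp6 (highest FPKM) and Igfbp5 (largest fold change). The IGF genes and the 13 other lists were chosen with earlier results of these data known. The counts of 1 of these lists, and a gene in it, are not reported here. Promoters are from RefSeq on GRCm38.p6.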

Additional observations from a re-analysis of the deposited data

How the results depend on the processing

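Of 179 alternative values of the IGF genes over 23 settings, 141 kept direction and side of the threshold and 19 turned direction. Of those that kept direction, 13 lost a call and 6 gained one. The 19 are counted by direction alone, and some of them also lost or gained a call. Of 897 values of the other named genes, 767 kept both, 92 kept direction and lost a call, 20 kept direction and gained one, and 18 turned direction. The cause of these changes was not tested. The count of IGF genes called lower, 2, was 1 with library totals alone and on log2(FPKM + 1) with and without a filter and on log2(FPKM + 0.1), 4 with GC, adenine and length removed, 5 with the GC trend removed and without control replicate 2, and 1 to 3 when 1 library was left out. The count called higher, 3, was 2 to 4 in every setting. The count of all genes called, 6266, was 9475 with limma-voom, 4118 with the GC offset, 4139 with GC averaged over coding transcripts and 4340 to 9592 when 1 library was left out, with 9592 reached without control replicate 2. Calls that were lower were 56.0% of all calls, 43.8% under upper-quartile scaling (median log2 fold change 0.21), 39.7% with library totals alone (0.26) and 33.3% on log2(FPKM + 1).

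The replicate numbers did not pair the libraries. Correlations of the deviations of same-numbered libraries were −0.08, 0.04 and 0.05, and not every library correlated best with its own number. With the replicate block 5615 genes were called, and 3101 with the block and the GC offset, and Igfbp6 was at 0.51 with an adjusted p = 0.0561.

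Directions turned as follows, with the GC offset, with GC and length, with GC, adenine and length, with GC over coding transcripts, with the block and GC, and with GC but without control replicate 2, where each did. Igfbp6 was at −0.17, −0.0245, −0.18, −0.17 and −0.0907, since its sign held in the third. Igfbp7 was at −0.41, −0.25, −0.18, −0.42, −0.39 and −0.19. Irs2 was at −0.42, −0.55, −0.56, −0.41, −0.40 and −0.58, at −0.0479 with limma-voom and between −0.0439 and 0.23 with 1 library left out. Igf2bp3 was at 0.0055, 0.0287, 0.11, 0.17 and 0.005 in the first 5. Rps6kb1 was at 0.16, 0.28, 0.23, 0.15 and 0.16, and Ghr at 0.0933, 0.12, 0.36, 0.0901 and 0.085, in all but the fourth. Igf2bp1 was at −0.13 with adenine included, and Ubb and Zfp444 were at −0.0593 and −0.16 over coding transcripts. Igf1, Igfbp2 and Igfbp5 are limited by depth, with at most 60 counts in a library.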
